A study of Rattus norvegicus with 20 samples.

Results

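The growth hormone receptor and insulin-like growth factor (IGF) axis was followed across 2 rat tissues through 4 genes, chosen by Ensembl identifier: Ghr (ENSRNOG00000015654), Igf1 (ENSRNOG00000004517), Igf1r (ENSRNOG00000014187) and Igf2 (ENSRNOG00000020369). These were 4 of the 32883 genes in the deposited table, and 4 of the 13806 genes with enough reads to be tested. RNA had been sequenced from gastrocnemius, a calf muscle of mixed fibre types, and from abdominal white adipose tissue of the same 10 rats, which gave 10 muscle and 10 adipose libraries. The animals were a Fischer 344 x Brown Norway cross, obtained at an age of 8 months from the National Institute on Aging. Before tissue was taken they spent 2 weeks under a reversed light cycle. All were killed under isoflurane anaesthesia. Each sample label says male, while the design text of the series speaks of 5 males and 5 females, so no sex was assigned to any library. Libraries with the same number came from the same rat.

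Growth hormone from the pituitary binds the growth hormone receptor, which signals through the kinase JAK2 and STAT5 factors. One of the best known targets of this signal is Igf1, whose product IGF-I acts both as a hormone from the liver and locally in the tissue that makes it. IGF-I and its relative IGF-II, the product of Igf2, bind the IGF-I receptor, a tyrosine kinase encoded by Igf1r that drives growth and survival. Igf2 is an imprinted gene that is highly expressed before birth, and in rodents its RNA falls in most tissues after birth. Both muscle and fat respond to growth hormone, which in fat promotes the release of stored lipid.

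Total counts ranged between 8446753 and 20141854 for muscle libraries and between 11067755 and 25904309 for adipose libraries. Levels are given as CPM, which are counts relative to a common library size, after scaling by TMM factors, which were 0.559 to 0.747 in muscle and 1.21 to 1.98 in adipose tissue; CPM of the plain library total are given where this choice matters, since plain totals move log2 fold changes towards adipose tissue, at the median of all genes by -1.30. In adipose libraries 1, 3 and 5, genes nearly restricted to muscle had a median level of 1.41%, 1.57% and 0.444% relative to muscle, against 0.0295% to 0.148% in the other 7; these were 170 genes with a median of at least 20 CPM in muscle and at least 100 times that of adipose tissue, by library totals. Muscle library 2 lay farthest from the other muscle libraries on the main axis of variation. Results are therefore also given without these libraries where they changed. The deposited table lists identifiers only; the symbols of the 4 genes came with their choice, and no other identifier was paired with a name. The labelled tissues could thus not be checked against named marker genes, and the other genes of the pathway (binding proteins, JAK and STAT factors, receptor substrates) could not be counted.

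All 4 genes differed between the tissues at an adjusted p below 0.05, which was also the case for 79.8% of all genes tested. Ghr and Igf1 were lower in muscle, whereas Igf2 was higher and so was Igf1r, whose sign turned round with plain library totals; of all genes tested, 42.2% were called lower in muscle and 37.6% higher. With plain library totals, 3 of the 4 genes and 86.4% of all genes were called; Ghr and Igf1 were then again lower in muscle, as were 74.2% of all genes, and Igf2 was higher, as were 12.3%. The sizes were far apart. Igf1 had a larger absolute log2 fold change than 95.1% of the genes tested, Igf2 than 83.2%, Ghr than 49.5% and Igf1r than 38.4%. In such tissue samples, fewer cells of a type and less RNA per cell cannot be told apart.

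**Figure D1:**
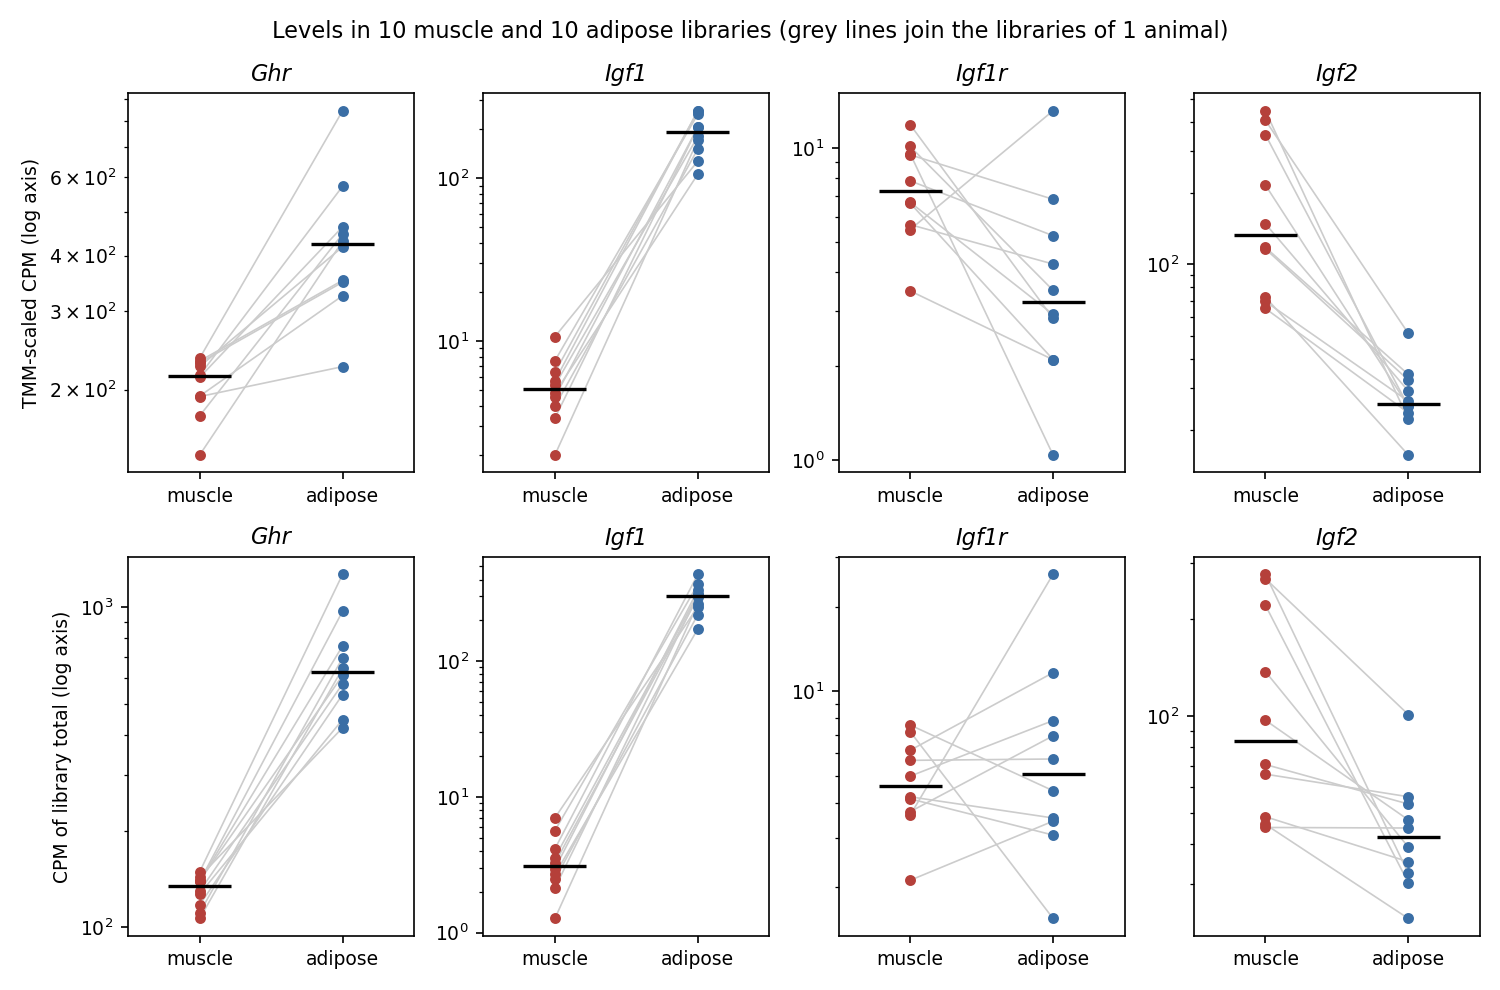
Level of each gene in every library, as TMM-scaled CPM (top) and CPM of the library total (bottom), on log axes, with muscle left and adipose tissue right. Points are libraries, black bars are medians over 10 libraries and grey lines join the libraries of 1 animal; Igf1 and Igf2 do not overlap between the tissues in the top row, and Igf1r is the gene whose medians change order between the rows.

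Igf1, the ligand, showed the widest gap between the tissues. Its level in muscle was lowest at 2.00 CPM, had a median of 5.07 CPM and was highest at 10.6 CPM. In adipose tissue the lowest library had 106 CPM, the median was 192 CPM and the highest had 259 CPM. The lowest adipose library lay far above the highest muscle library, and the groups did not overlap. Muscle libraries averaged 5.43 ± 2.40 CPM, and adipose libraries 191 ± 53.8 CPM (SD, n = 10 each). The log2 fold change of muscle over adipose tissue was -5.13 (SE 0.26; edgeR quasi-likelihood test with adjustment by Benjamini and Hochberg over all genes, adjusted p = 5.37e-14), and Igf1 was lower in muscle in 10 of 10 animals. Expressed as means, the adipose level was 35.1 times the muscle level, or 84.4 times with plain library totals.

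The muscle value of Igf1 rested on few reads. The lowest muscle library held 17.83 counts of it; a count of 18 has an exact 95% Poisson interval of 10.7 to 28.4, which covers counting error only. The 153 genes restricted to adipose tissue by the same limits stood in muscle libraries at a median of 0.203% to 0.529% of their adipose level, by library totals. On the same scale Igf1 stood in the muscle libraries at 0.420% to 2.32% of its median adipose level. Its median there was 1.04%. The restricted genes had to be at least 100-fold lower in muscle, a limit that Igf1 did not meet, so its place above them follows from how they were chosen. How much of the muscle signal came from fat cells in the sample was not tested.

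Ghr, the receptor for growth hormone, was lower in muscle as well, by a smaller factor. Its level in muscle ran from 143 CPM in library 2 to 235 CPM in library 7, with a median of 214 CPM. In adipose tissue it ran from 225 CPM in library 4 to 846 CPM in library 7, with a median of 425 CPM. A single adipose library, number 4, reached into the muscle range, and without it the next lowest adipose library had 325 CPM. Muscle libraries averaged 206 ± 29.7 CPM, and adipose libraries 443 ± 169 CPM (SD, n = 10 each). The log2 fold change was -1.11 (SE 0.18; adjusted p = 5.32e-06, edgeR), and Ghr was lower in muscle in 10 of 10 animals. Under plain totals the groups no longer overlapped, and the log2 fold change came to -2.41 (SE 0.17, adjusted p = 1.39e-11, edgeR). With that scaling 74.2% of all genes were called lower in muscle, and the share of genes without overlap was not counted.

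The receptor's RNA was also the most even of the 4 genes among muscle libraries. On the log2 scale its SD over animals was 0.23 in muscle and 0.51 in adipose tissue. The muscle value was above that of 23.5% of the genes tested in that tissue, and the adipose value above 65.2%. The highest adipose library held 3.75 times the level of the lowest, while in muscle the factor was 1.65.

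The start regions of both genes that were lower in muscle are shown because these genes moved in the same direction. The sequences are the 250 bases before 1 listed start of each gene, from RefSeq on the rat assembly GRCr8, 5′ to 3′ on the strand of the gene; the counts were made on another assembly and do not tell which start was used. Capitals mark matches to CANNTG, the E-box, a motif bound by basic helix-loop-helix factors, which reads the same on both strands.
Ghr, chr2:54432076-54432325, minus strand: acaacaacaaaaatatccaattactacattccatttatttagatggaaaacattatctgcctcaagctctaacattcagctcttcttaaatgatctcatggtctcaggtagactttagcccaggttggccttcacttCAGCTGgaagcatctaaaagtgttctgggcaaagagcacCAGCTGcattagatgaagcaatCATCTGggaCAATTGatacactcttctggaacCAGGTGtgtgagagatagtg
Igf1, chr7:24172282-24172531, plus strand: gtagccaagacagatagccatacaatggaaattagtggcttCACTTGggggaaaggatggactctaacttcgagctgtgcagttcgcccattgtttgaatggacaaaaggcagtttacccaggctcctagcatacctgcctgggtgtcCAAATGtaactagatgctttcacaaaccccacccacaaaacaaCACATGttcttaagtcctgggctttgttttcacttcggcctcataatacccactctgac
The Ghr window held 5 matches and the Igf1 window 3. At least 1 match was found in 65.5% of 33469 such windows over all genes of the table, so these letters are common. The motif TTCNNNGAA, the form that STAT factors bind, also equal on both strands, had no match in either window and was found in 7.67% of all windows. The share of G and C was 40.8% for Ghr and 46.8% for Igf1, against a median of 51.2% over all windows.

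Igf2, the second ligand, went the other way and was higher in muscle. Its level in muscle ran from 65.1 CPM in library 2 to 446 CPM in library 9, with a median of 133 CPM. In adipose tissue it ran from 15.7 CPM in library 7 to 51.1 CPM in library 4, with a median of 25.8 CPM. No adipose library reached the lowest muscle library. Muscle libraries averaged 201 ± 147 CPM, and adipose libraries 28.5 ± 9.53 CPM (SD, n = 10 each), a ratio of means of 7.05. The log2 fold change was 2.82 (SE 0.36; adjusted p = 3.10e-07, edgeR), and Igf2 was higher in muscle in 10 of 10 animals. Igf2 and Igf1 were thus called without any overlap of libraries, whereas Ghr and Igf1r were not; among all genes tested this held for 45.5%, with 21.0% higher and 24.5% lower in muscle.

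With library totals the Igf2 difference was smaller. The ratio of means was then 2.75, the tissues overlapped, and the log2 fold change was 1.46 (SE 0.36; adjusted p = 0.000802, edgeR). The muscle level was still the higher one in 10 of 10 animals. In adipose libraries 1, 3 and 5, muscle-restricted genes stood at up to 1.57% of their muscle level. There Igf2 stood at 63.4%, 36.1% and 56.6% of its median muscle level by library totals, against 27.9% to 118% in the other adipose libraries. Without adipose libraries 1, 3 and 5 the log2 fold change with TMM factors was 2.89 (SE 0.45, adjusted p = 8.21e-06, edgeR).

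The table lists 2 windows for starts of Igf2. They are shown as a contrast to those above because this gene moved in the opposite direction; they come from the same source, and capitals would mark CANNTG.
Igf2, upstream window, chr1:207253981-207254230, minus strand: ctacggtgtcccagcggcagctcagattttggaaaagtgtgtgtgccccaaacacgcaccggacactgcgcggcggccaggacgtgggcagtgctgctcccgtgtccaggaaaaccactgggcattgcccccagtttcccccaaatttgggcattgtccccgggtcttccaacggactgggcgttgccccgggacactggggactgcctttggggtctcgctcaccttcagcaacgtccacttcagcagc
Igf2, downstream window, chr1:207250476-207250725, minus strand: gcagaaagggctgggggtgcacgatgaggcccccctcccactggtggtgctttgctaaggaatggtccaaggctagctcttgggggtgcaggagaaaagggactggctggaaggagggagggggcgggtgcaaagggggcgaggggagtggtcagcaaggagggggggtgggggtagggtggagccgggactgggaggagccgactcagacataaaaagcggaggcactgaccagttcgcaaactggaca
Neither window held CANNTG or TTCNNNGAA. Their shares of G and C were 62.4% and 63.6%. The window of Igf1r, not printed, held 1 match to CANNTG and had 79.6% of G and C, more than 98.8% of all windows. No match says only that the letters are not in these bases. Igf1r, with its match, was also higher in muscle with TMM factors. A relation between these motifs and the direction of any of the 4 genes was not tested.

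Igf1r, the receptor for both ligands, was the gene whose direction depended on the scaling. Its level in muscle ran from 3.48 CPM in library 1 to 11.9 CPM in library 10, with a median of 7.28 CPM. In adipose tissue it ran from 1.04 CPM in library 2 to 13.2 CPM in library 4, with a median of 3.21 CPM. The adipose range enclosed the whole muscle range, and adipose library 4 alone exceeded each muscle library. The next highest adipose library had 6.85 CPM. The log2 fold change was 0.80 (SE 0.34; adjusted p = 0.0373, edgeR), and Igf1r was higher in muscle in 9 of 10 animals, all but animal 4. Without adipose library 4 it was 1.16 (SE 0.28; adjusted p = 0.000796, edgeR).

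With library totals the sign of the Igf1r difference turned round, to -0.59 (SE 0.39; adjusted p = 0.156, edgeR), and the gene was higher in muscle in 4 of 10 animals. The call was also lost with upper-quartile factors, where the log2 fold change was 0.62 (edgeR, adjusted p = 0.0999), without adipose libraries 1, 3 and 5 (0.70, adjusted p = 0.0997) and without muscle library 2 (0.78, adjusted p = 0.0511). When each animal was left out in turn, the call was lost without animal 2, 6, 7, 9 or 10 (edgeR, adjusted p from 0.0507 to 0.109). Counts were low, down to 17.5 in adipose library 2 and 41.33 in muscle library 1. With the animal as a block, which uses the pairing of the libraries, it was 1.05 (SE 0.34; adjusted p = 0.0119, edgeR). The difference in Igf1r thus passed the test under some of these settings and not under others.

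**Figure D2:**
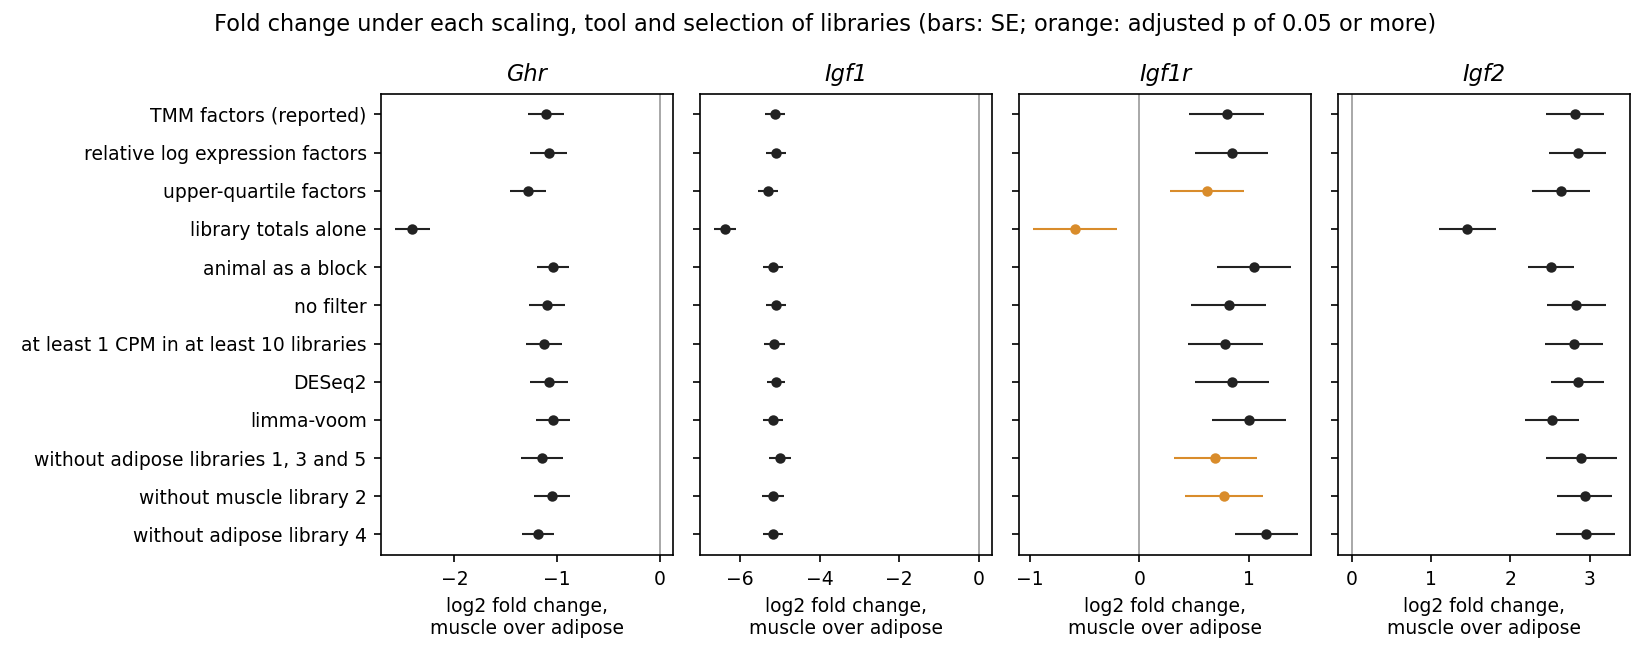
Log2 fold change of muscle over adipose tissue for each gene (x axis, bars are SE) under 12 settings (rows); points in orange had an adjusted p of 0.05 or more. Igf1 lies between -6.39 and -5.0, Ghr between -2.41 and -1.04 and Igf2 between 1.46 and 2.95, while Igf1r crosses 0 with library totals.

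Because a ratio of 2 genes within a library does not change with the library's scaling, the balance between the genes was compared over the 6 possible pairs. Reads per gene also depend on transcript length, so only differences of such ratios between tissues are read, not the ratios themselves. Differences within animals were tested by an exact permutation of their signs (two-sided, n = 10 animals), with Benjamini-Hochberg adjustment over the 6 pairs; the smallest unadjusted p of such a test is 0.00195.

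The balance between Igf1 and the other genes shifted most. The log2 read ratio of Igf1 to Igf2 averaged -4.97 ± 1.25 for muscle and 2.75 ± 0.77 for adipose tissue (SD, n = 10 each), a difference of -7.72 (SE 0.42; exact permutation test, adjusted p = 0.00293). It was lower in muscle in 10 of 10 animals, with differences from -9.55 to -6.24. The ratio of Igf1 to Igf1r averaged -0.55 ± 0.97 in muscle and 5.71 ± 1.21 in adipose tissue, a difference of -6.26 (SE 0.53; exact permutation test, adjusted p = 0.00293), again lower in 10 of 10. Set against Ghr, Igf1 was also the gene that was lower: the ratio of Ghr to Igf1 averaged 5.34 ± 0.73 in muscle and 1.19 ± 0.49 in adipose tissue, and was higher in muscle by 4.15 (SE 0.18; exact permutation test, adjusted p = 0.00293). In these 3 pairs the libraries of the tissues did not overlap. The lower Igf1 in muscle therefore did not depend on the scaling relative to any of the other 3 genes. Ratios of other gene pairs were not computed. How often such pairs pass the test or separate the tissues is thus not known, for any of the 6 pairs. Among single genes tested, 45.5% were called without overlap.

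Igf2 rose relative to Ghr in the same way. The ratio of Ghr to Igf2 averaged 0.37 ± 1.04 in muscle and 3.94 ± 0.93 in adipose tissue, a difference of -3.57 (SE 0.29; exact permutation test, adjusted p = 0.00293), lower in muscle in 10 of 10 animals without overlap. Igf1r lay between the others. The ratio of Ghr to Igf1r was lower in muscle by a mean of -2.10 (SE 0.47; exact permutation test, adjusted p = 0.00469) in 9 of 10 animals. The ratio of Igf1r to Igf2 differed by -1.46 (SE 0.51; exact permutation test, adjusted p = 0.0195), lower in muscle in 9 of 10 animals with overlap. Without animals 1, 3 and 5 that last difference was -1.28 (exact permutation test, adjusted p = 0.125), where 7 animals remain. Relative to Ghr, Igf1r and Igf2 were thus both higher in muscle, in 9 and 10 of 10 animals.

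**Figure D3:**
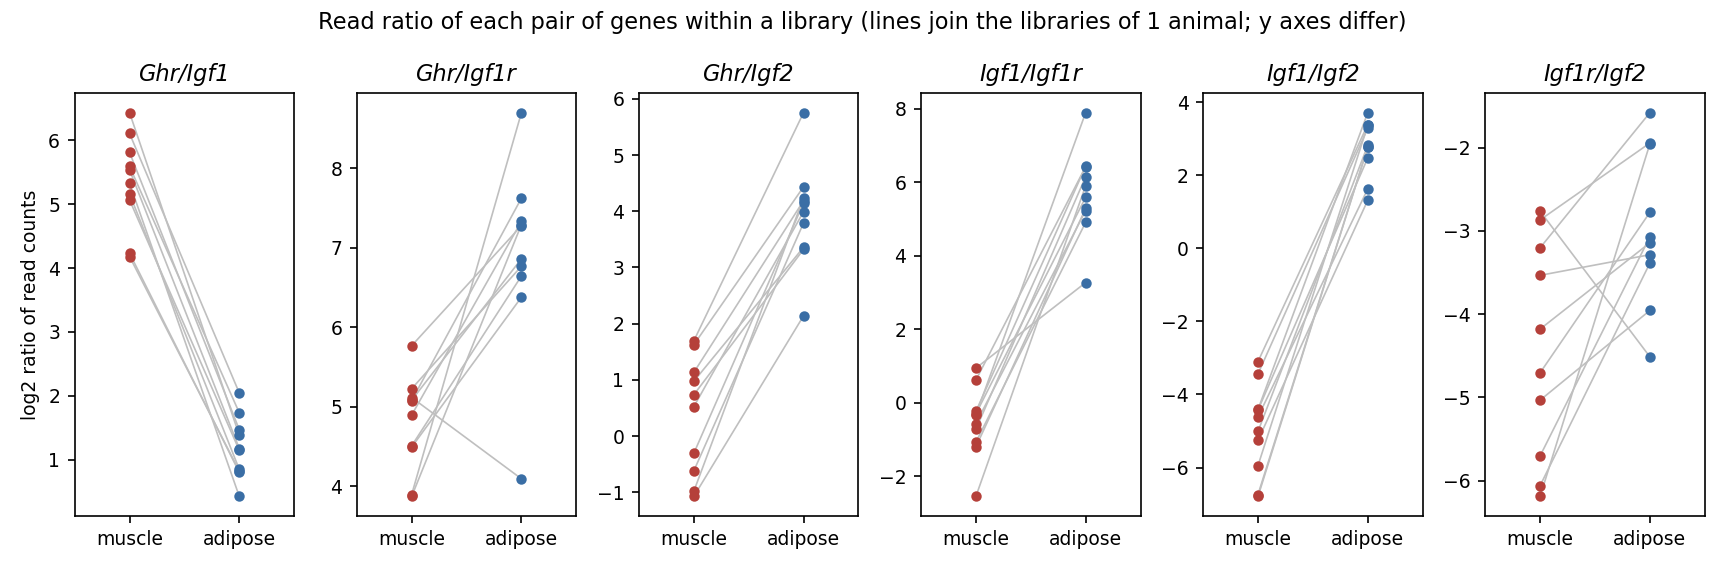
Log2 ratio of read counts of each pair of genes within a library (y axis, scales differ between panels), with muscle left and adipose tissue right; points are libraries and lines join the libraries of 1 animal. The pairs with Igf1 and the pair of Ghr and Igf2 separate the tissues without overlap, while Ghr/Igf1r and Igf1r/Igf2 overlap and 1 animal goes against the others in each. Pairs of other genes were not compared.

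The genes differed in how much animals varied, and not always in the same tissue. Igf2 varied most in muscle, with an SD of 1.07 on the log2 scale, above 95.8% of the genes tested there, and of 0.45 in adipose tissue, above 56.4%. Its highest muscle library held 6.84 times the level of its lowest. Igf1r varied most in adipose tissue, with an SD of 0.52 in muscle, above 69.5% of genes, and of 0.98 in adipose tissue, above 92.6%. Its highest adipose library held 12.7 times the level of the lowest, where the lowest had 18 counts and thus a counting error of 23.6%. Igf1 had SDs of 0.64 in muscle and 0.44 in adipose tissue. Over all genes tested the median SD was 0.35 in muscle and 0.41 in adipose tissue.

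The variation of Igf2 in muscle followed the main axis on which muscle libraries differed. The first principal component of muscle libraries, computed without the 4 genes, held 53.9% of the variance, with library 2 at 1 end and library 9 at the other. Igf2 had 65.1 CPM in library 2, 69.7 in library 8 and 72.7 in library 7, the 3 libraries at the first end, and its highest values, 446, 407 and 354 CPM, in libraries 9, 4 and 3, on the other side of the axis. Pearson's r with the axis was -0.77 (permutation test, p = 0.00226, adjusted p = 0.0181 over 8 relations) and Spearman's rho was -0.96 (permutation test, adjusted p = 0.00024), over 10 libraries. Without libraries 2 and 8, farthest from the median of the axis, r was -0.86 over the other 8 (exact permutation test, adjusted p = 0.0285 over 4 relations). With library totals r was -0.70 (permutation test, adjusted p = 0.0926). Ghr had r = -0.57 and rho = 0.03, Igf1 r = 0.33 and rho = 0.30, and Igf1r r = 0.31 and rho = 0.30 with this axis, none past the test (permutation test, adjusted p of r from 0.364 to 0.388, and of rho from 0.465 to 0.946). The relation of Igf2 to this axis was looked for after the values had been seen. An axis that holds 53.9% of the variance is followed by many genes. The share of genes that follow it as closely as Igf2 was not counted.

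In adipose tissue the first component held 48.7% of the variance and set libraries 4, 7 and 8 apart from the other 7. Igf1r ran from 5.24 to 13.2 CPM in those 3 libraries, all above the other 7, which ran from 1.04 to 4.25 CPM. The axis was made from the variation of many genes. How many of them separate these libraries in the same way was not counted, so this is not particular to Igf1r. Igf1 ran from 127 to 258 CPM in the 3 libraries, inside the 106 to 259 CPM of the other 7. Igf2 had both its lowest and its highest adipose value among the 3 libraries, in 7 and 4. Ghr had its highest value in library 7, and with TMM factors its lowest in library 4. Within the 7 libraries, no gene had a correlation with the axis past the test: r was 0.43 for Igf1r, 0.49 for Ghr, -0.51 for Igf1 and 0.39 for Igf2, and rho 0.54, 0.57, -0.46 and 0.57 (exact permutation tests, adjusted p = 0.388 for each r and 0.465 for each rho). With library totals, r was 0.53 for Igf1r, 0.78 for Ghr, -0.29 for Igf1 and 0.77 for Igf2, none past the test either (exact permutation tests, adjusted p from 0.113 to 0.510). With 5 libraries left after removal of the farthest pair, no r is given. Library 4 had the highest TMM factor of all libraries, 1.98. It held the highest Igf1r and Igf2 of adipose tissue with TMM factors, and also with library totals, at 26.1 and 101 CPM. Its Ghr was the lowest with TMM factors only: with library totals it had 446 CPM, against 420 CPM in adipose library 3.

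**Figure D4:**
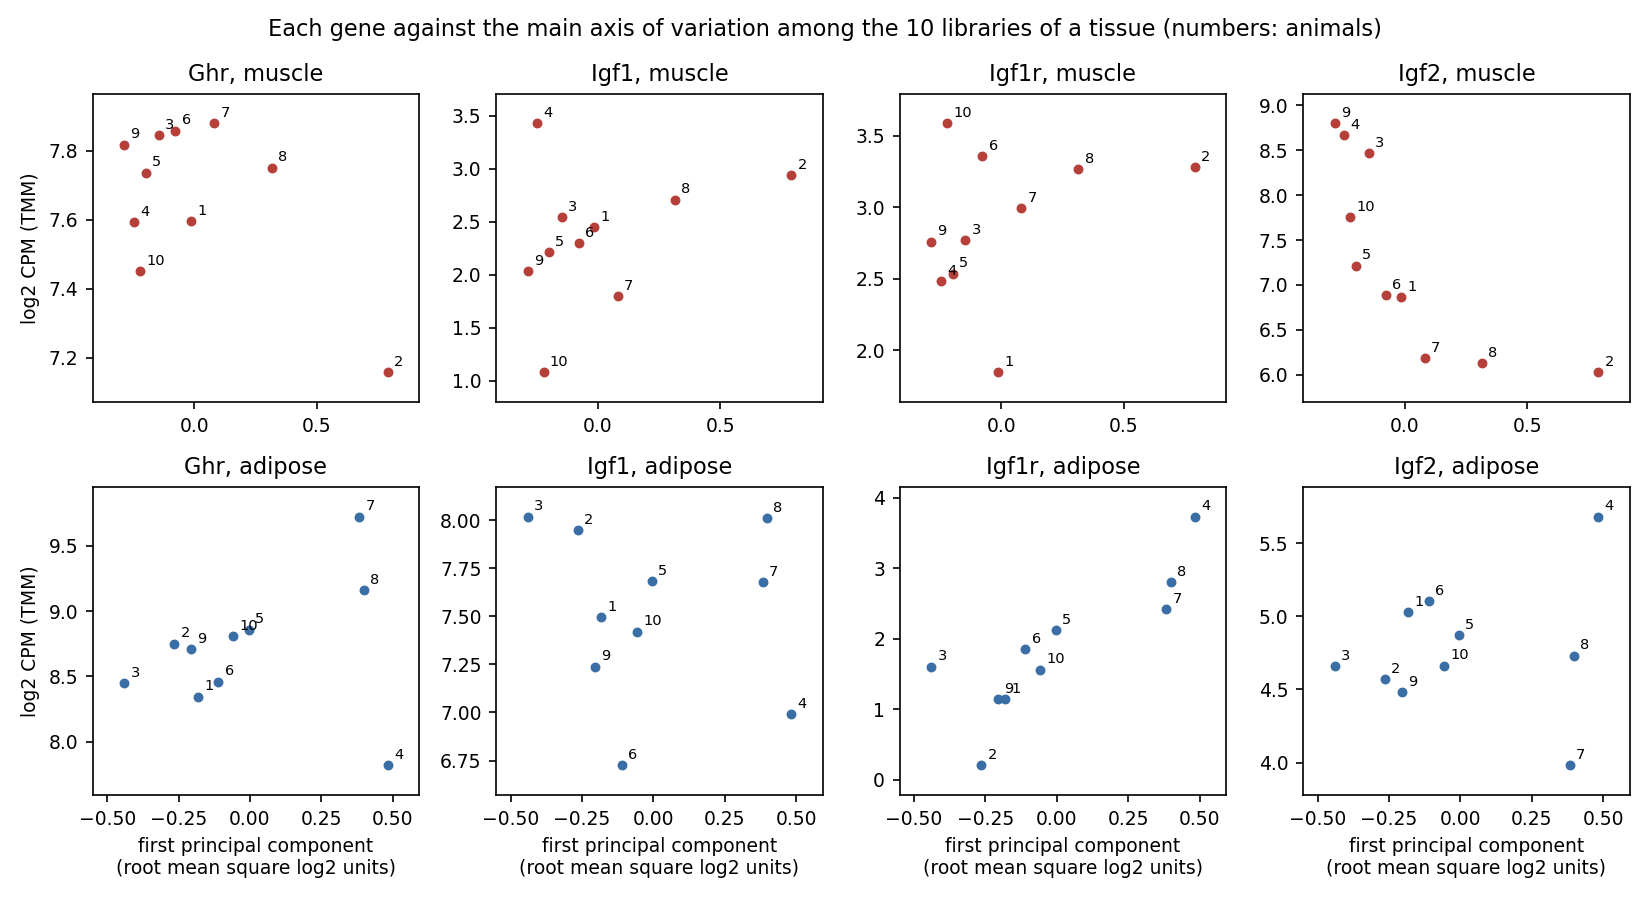
Log2 CPM of each gene (y axis) against the first principal component of the libraries of its tissue (x axis, root mean square log2 units), muscle above and adipose tissue below; points are libraries, numbered by animal. Igf2 in muscle falls along the axis with rho = -0.96, and adipose libraries 4, 7 and 8 hold the highest Igf1r. How many other genes follow either axis as closely was not counted.

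Igf1 was not detectably related to either receptor across animals. Relations between Igf2 and the receptors were not tested. Of 8 relations tested, 4 of them between Igf1 and a receptor, none passed (permutation tests, adjusted p of r from 0.802 to 0.913, all adjusted p of rho 0.864). Ghr and Igf1 had r = -0.18 and rho = -0.33 in muscle and r = 0.48 and rho = 0.38 in adipose tissue; without the 2 libraries farthest from the median of Ghr, r was -0.69 and 0.40. Igf1 and Igf1r had r = -0.36 and rho = -0.27 in muscle and r = -0.25 and rho = -0.07 in adipose tissue, and without the 2 farthest libraries r was 0.19 in each tissue. With 10 animals, weak and moderate relations could not have been detected. The r of 0.48 for Ghr and Igf1 in adipose tissue had an unadjusted p of 0.159 (permutation test).

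The level of a gene in the muscle of an animal was also not detectably related to its level in the fat of the same animal (the same 8 relations). Between the tissues, Ghr had r = 0.21 and rho = 0.21, Igf1 r = 0.04 and rho = 0.24, Igf1r r = -0.09 and rho = -0.12, and Igf2 r = 0.36 and rho = 0.14. Without the 2 animals farthest from the muscle median, r was 0.60, 0.46, -0.39 and 0.26.

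Among 10368 genes averaging 5 CPM or more, the gene whose deviations from the tissue means were most like those of each of the 4 was sought over the 20 libraries. For Ghr it was ENSRNOG00000011622 (r = 0.88), and for Igf1 ENSRNOG00000015713 (r = 0.81), both lower in muscle with TMM factors, with log2 fold changes of -1.75 and -3.05. For Igf1r it was ENSRNOG00000008036 (r = 0.90), and for Igf2 ENSRNOG00000016706 (r = 0.85), both higher in muscle with TMM factors, with log2 fold changes of 1.11 and 1.91. These are the closest of many genes and are given as a description. The second closest genes had log2 fold changes of -2.07 for Ghr, 4.15 for Igf1r and 0.63 for Igf2. For Igf1 the second closest was nearly tied (r = 0.81) and was not called, at 0.23 (edgeR, adjusted p = 0.165). For the closest matches r was positive in both tissues, though not equally high. In muscle and adipose tissue, r was 0.76 and 0.91 for the match of Ghr and 0.91 and 0.54 for that of Igf1. It was 0.60 and 0.97 for that of Igf1r and 0.89 and 0.62 for that of Igf2. For the second closest genes, r was 0.69 and 0.93 with Ghr and 0.87 and 0.67 with Igf1. With Igf1r it was 0.68 and 0.95, and with Igf2 it was 0.90 and -0.15.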

How the data were processed

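Messenger RNA libraries were made from 300 ng of RNA, with 10 mg of tissue for muscle and 30 mg for fat, per the labels' protocols. The tools bcl2fastq, STAR and featureCounts and the build rn6 are named, per the submitters' processing notes. Tool versions, gene annotation, strandedness and the handling of reads with several matches were not given in the sources used here. The authors deposited expected counts per gene, not normalised, of which 25.3% of the values above 0 and 7 of the 80 values of the 4 genes were whole within 0.005. Reads that match several genes or places may thus have been divided, and values were rounded to whole numbers.

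All genes passing filterByExpr were fitted in R 4.3.3 with edgeR 4.0.16 (TMM, robust quasi-likelihood test, Benjamini-Hochberg over 13806 genes), without the animal as a block; SEs come from the F statistic. Log2 CPM used a prior count of 2, and ratios one of 0.5. Permutation tests over 10 animals used 100000 resamples for correlations. Alternatives were other factors, filters, the animal block, DESeq2 1.42.0, limma-voom (limma 3.58.1) and libraries left out; removal of adipose library 4 or animal 4 and the principal component analysis were added after the values were seen. The 4 genes and all lists were chosen with earlier results of these data known. The lists of pathway genes and cell type markers could not be run without names. The text names the 4 genes and the nearest identifier of each.

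The number in a title names the rat, which pairs muscle with adipose libraries, per the labels and the design text. Over 8303 genes, deviations from the tissue means correlated between libraries of the same animal at -0.22 to 0.42 (median 0.12), against a median of -0.03 between animals. The best match in the other tissue was the same animal's library for 2 of 10 adipose and 2 of 10 muscle libraries. The pairing was therefore taken from the labels. Separate animals were used, and no 2 libraries agreed within sampling noise (lowest chi-square per degree of freedom 12.4).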

Additional observations from a re-analysis of the deposited data

How the results depend on the processing

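Ghr, Igf1 and Igf2 kept their direction and call under all 11 alternatives and all 10 fits without 1 animal. The fits without 1 animal gave -1.17 to -0.97 for Ghr, -5.33 to -5.03 for Igf1 and 2.57 to 2.92 for Igf2. The other alternatives gave -2.41 to -1.04, -6.39 to -5.0 and 1.46 to 2.95, with library totals at -2.41, -6.39 and 1.46. Igf1r was 0.62 with upper-quartile factors, -0.59 with library totals, 0.70 without adipose libraries 1, 3 and 5, 0.78 without muscle library 2 and 0.65 to 1.21 without 1 animal; the cause was not tested. The animal as a replicate block changed the call of none of the 4 genes: Igf1r was 1.05 (edgeR adjusted p = 0.0119), Ghr was -1.04, Igf1 -5.18, Igf2 2.51, and 10990 genes were called, beside 11011. The count of called genes was 10702 to 11067 without 1 animal and 10566 to 13894 under the other alternatives. With library totals 12.3% of genes were called higher in muscle and 74.2% lower, against 37.6% and 42.2% with TMM factors.

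The ratio of Igf1r to Igf2 was -1.28 without animals 1, 3 and 5, with fewer animals, and -1.82 to -1.15 without 1 animal. All other ratios kept their call, also with the tissue labels permuted freely (no replicate block).

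Among relations across animals, none of which passed, the sign of r turned round as follows. For Ghr and Igf1 in muscle, r was 0.14 without animal 2, and -0.61 to 0.14 without 1 animal. For Igf1 across tissues it was -0.080 without animal 2, and -0.080 to 0.40 without 1 animal. For Igf1r across tissues it was 0.083 without animal 2, 0.13 without animal 4, and -0.40 to 0.13 without 1 animal. For Igf1 and Igf1r in adipose tissue it was 0.049 without animal 4, 0.19 without the 2 farthest libraries, and -0.44 to 0.049 without 1 animal. For Igf1 and Igf1r in muscle it was 0.19 without the 2 farthest libraries. For Ghr across tissues it was -0.028 to 0.38 without 1 animal. With the main axis of muscle, r without libraries 2 and 8 was 0.34 for Ghr, -0.12 for Igf1 and -0.11 for Igf1r. Igf1 in muscle and Igf1r in both tissues had the fewest reads, which limits their precision.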
